A study of Mus musculus with 6 samples.

Results

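The genes described here are 52 cell cycle and DNA replication genes of the mouse, out of 23107 genes in the count table, measured by RNA-seq in myeloid cells sorted out of gliomas. They were chosen by name from what they are known to do, with earlier results of these data known, and were set in 3 roles. Of them, 16 act at the passage from G1 into S phase (the cyclins D and E with their kinases, Cdc25a, the E2F factors and the pocket proteins). Another 15 carry out DNA replication or supply nucleotides, and 21 act in G2 and mitosis. The cells were CD11b+ Gr-1+ cells taken by flow cytometry, after enrichment of immune cells on Percoll, from tumours with mutant IDH1 (mIDH1, 3 libraries) and from tumours with wild-type IDH1 (wtIDH1, 3 libraries). All the mice were of C57BL/6 background, and the 2 groups differ in the labels by the IDH1 genotype alone. The labels do not state how the tumours were made, which other alleles they carry, how old the mice were or whether each replicate is a mouse of its own. The question is how the infiltrating cells of the 2 genotypes differ, in a study of G-CSF made by IDH1-mutant glioma cells.

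A cell enters the cycle when cyclins of the D type, bound to the kinases Cdk4 and Cdk6, phosphorylate Rb1 and its relatives Rbl1 and Rbl2, the pocket proteins, which otherwise hold E2F factors in check. Free E2F factors switch on the genes of cyclin E and of the replication machinery. Genes of mitosis come on later, through a complex of MuvB with B-Myb and Foxm1 that works at CHR elements, and together with the factor NF-Y that binds CCAAT boxes. Mature neutrophils do not divide and circulating monocytes divide little, while their precursors in the marrow, and macrophages and microglia in tissue, can do so. The RNA of sorted cells is a sum over all of them, so more cycling cells and more RNA per cycling cell cannot be told apart.

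The libraries held between 19728204 and 35093267 counts, and levels are given as CPM, counts scaled to library size, after TMM normalization. The leukocyte genes Itgam, which encodes CD11b, and Ptprc did not differ past the threshold: Itgam averaged 2072 ± 211 CPM in mIDH1 and 1894 ± 146 CPM in wtIDH1 libraries (SD, n = 3 each; adjusted p = 0.699). Markers of cells that such a sort should remove were present as well, among them Cd3e of T cells at 70.0 to 122 CPM in mIDH1 and 44.6 to 93.4 CPM in wtIDH1 libraries. Of 10 markers of neutrophil precursors, which divide, Mpo lay between 0 and 3.42 CPM in mIDH1 and between 0 and 0.324 CPM in wtIDH1 libraries, and Elane had no count in any wtIDH1 library, which allows up to 0.151 CPM. The summed level of the list, 781 to 2518 CPM in mIDH1 and 298 to 895 CPM in wtIDH1 libraries, was nearly all Chil3, which monocytes and macrophages also make. EdgeR tested 5 of the 10, with 4 positive and 1 negative log2 fold changes, and called none. At an unadjusted p under 0.05 there were 2, both higher in mIDH1, against 22.2% of all genes tested. DESeq2 called 1, against 11.7% of the genes it tested. Of 9 myeloid genes, edgeR called 1 higher and 2 lower in mIDH1, and the other 6 did not pass. Ly6c2, high in monocytes, fell to 45.0 ± 10.4 CPM in mIDH1, against 152 ± 54.1 CPM in wtIDH1 (SD, n = 3 each; adjusted p = 0.00184), and Csf3r, the G-CSF receptor gene, to 148 ± 33.8 CPM, against 260.0 ± 12.6 CPM (adjusted p = 0.0214). Cd68, a macrophage marker, rose to 289 ± 11.9 CPM in mIDH1, against 182 ± 15.8 CPM in wtIDH1 (adjusted p = 0.0223). The part of these marker differences in the values below was not tested.

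Of the 52 genes, 3 passed edgeR's test at an adjusted p under 0.05, and all 3 belong to the G1/S genes: Ccnd1 and E2f2 fell and Rbl2 rose in mIDH1. Over all 12950 genes tested, 8.17% passed, 2.78% as higher and 5.39% as lower, so the count of 3 in 52 lies under the share over all genes. At an unadjusted p under 0.05 there were 8 of the 52 genes, against 22.2% of all genes tested. DESeq2 called 5 of the 52 (11.7% of the genes it tested) and limma voom 3 (8.00%). The 3 mIDH1 and the 3 wtIDH1 values did not overlap for 11 of the 52 genes, against 28.9% of all genes tested, and 9 of these 11 were G1/S genes. The median log2 fold change, mIDH1 over wtIDH1, was -0.04 for G1/S genes, -0.03 for replication genes and 0.23 for mitotic genes, beside 0.06 for all genes tested. All 52 genes passed the filter on low counts, and 51 had at least 10 counts in each of the 6 libraries. Reads were not assigned to a strand, and 15 of the 52 genes share more than 100 exonic bases with a gene on the opposite strand.

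**Figure D1:**
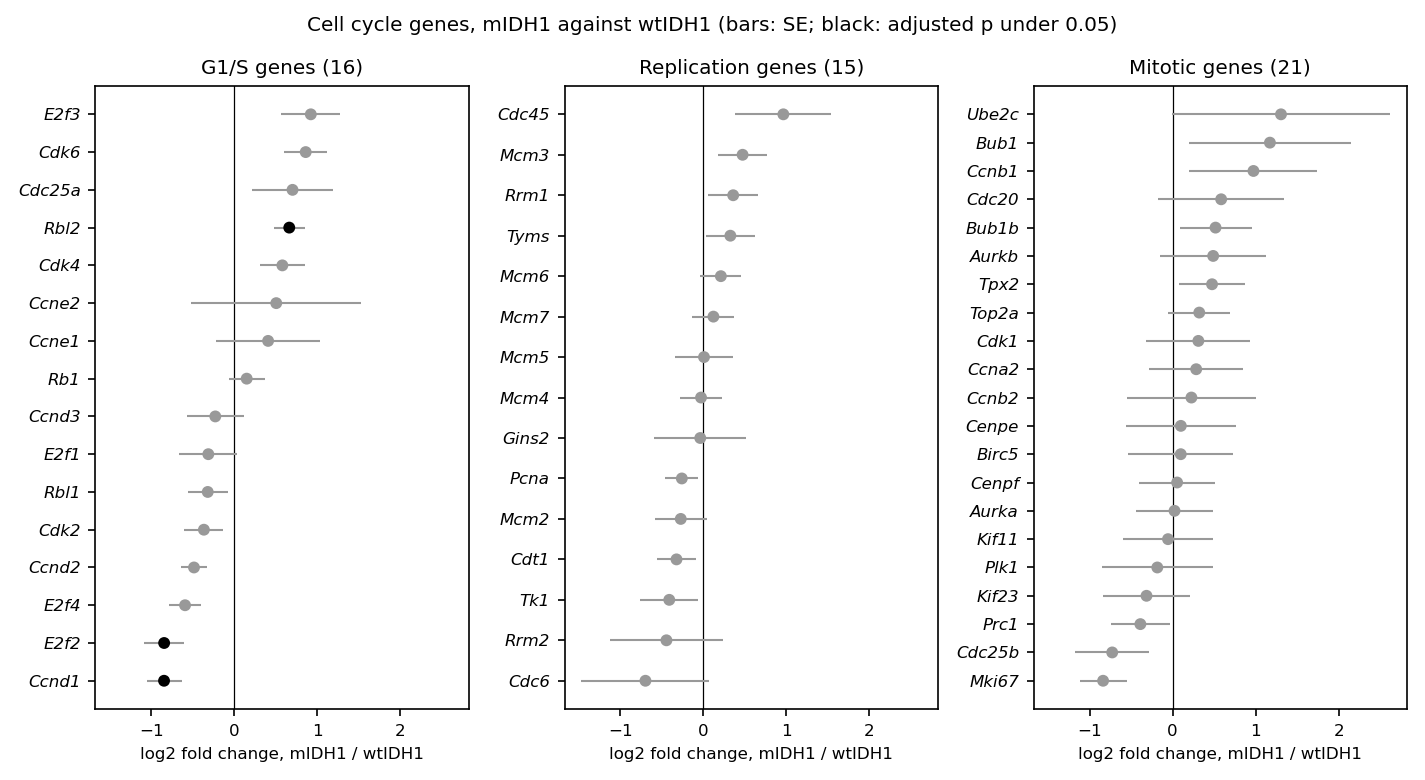
Log2 fold change of each of the 52 genes, mIDH1 over wtIDH1, in the 3 roles, with bars for the standard error and black points for genes at an adjusted p under 0.05. Ccnd1 (-0.85), E2f2 (-0.85) and Rbl2 (0.66) are the black points, and the bars are wider among the mitotic genes than among the G1/S genes.

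Of the D cyclins, which couple outside signals to cycle entry, Ccnd1 and Ccnd2 were among the better expressed of the 52 genes. Ccnd1, the gene of cyclin D1 (chromosome 7, 144929931 to 144939925, minus strand), was at 74.7, 57.3 and 95.02 CPM in mIDH1 libraries, against 113, 152 and 143 CPM in wtIDH1 libraries. Every mIDH1 library lay under every wtIDH1 library, and the gene fell (log2 fold change -0.85 ± 0.21 SE, adjusted p = 0.0284). It shares 1100 exonic bases with the gene Lto1 on the other strand, which the table lists as Oraov1, at 8.45 ± 3.03 CPM in mIDH1 and 10.01 ± 4.67 CPM in wtIDH1 (SD, n = 3 each). Ccnd2, the gene of cyclin D2, was at 154, 146 and 129.6 CPM in mIDH1 and at 201, 191 and 209.5 CPM in wtIDH1 libraries. The groups were apart here too, with a log2 fold change of -0.49 ± 0.16 SE that did not pass (adjusted p = 0.0838). Ccnd3, the gene of cyclin D3, overlapped between the groups, at 39.3, 47.5 and 24.0 CPM in mIDH1 and 25.0, 64.1 and 40.8 CPM in wtIDH1 libraries (log2 fold change -0.23 ± 0.34 SE, adjusted p = 0.760). Per kilobase of merged exons, Ccnd1 was at 16.1 CPM in mIDH1 and 28.9 CPM in wtIDH1, Ccnd2 at 15.2 and 21.3 CPM in the same order, and Ccnd3 at 4.21 and 4.93 CPM. Ccnd1 passed in 2 of 6 fits that left out 1 library, with an adjusted p of 0.0585 without mIDH1 replicate 1, 0.105 without mIDH1 replicate 2, 0.146 without wtIDH1 replicate 2 and 0.110 without wtIDH1 replicate 3.

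The kinases that D cyclins bind, Cdk4 and Cdk6, were each higher in every mIDH1 library than in any wtIDH1 library, and neither passed edgeR's test. Cdk6 was at 68.4, 71.6 and 38.6 CPM in mIDH1 libraries and at 31.7, 35.7 and 31.0 CPM in wtIDH1 libraries (log2 fold change 0.86 ± 0.26 SE, adjusted p = 0.058 by edgeR and 0.0274 by DESeq2). The groups did not overlap, but mIDH1 replicate 3 lay near the wtIDH1 libraries, and the fit that left it out gave a log2 fold change of 1.09 (adjusted p = 0.00796). Summed T and NK cell markers, described below, were also highest in mIDH1 replicates 1 and 2, and their part in the Cdk6 values was not tested. Cdk4 was at 42.9, 32.2 and 41.3 CPM in mIDH1 and 30.8, 28.9 and 18.3 CPM in wtIDH1 libraries (log2 fold change 0.58 ± 0.27 SE, adjusted p = 0.231). Cdk2, the partner of cyclins E and A, was lower in every mIDH1 library, at 25.4 to 31.2 CPM against 32.9 to 39.6 CPM in wtIDH1 (adjusted p = 0.401). Both cyclin E genes were low, Ccne1 at 2.51 to 11.9 CPM in mIDH1 and 4.55 to 6.10 CPM in wtIDH1, and Ccne2 at 1.12 to 3.82 and 1.11 to 2.12 CPM in the same order, and the groups overlapped for both. Cdc25a, the phosphatase that frees Cdk2 for action, had overlapping groups (log2 fold change 0.70 ± 0.48 SE, adjusted p = 0.441).

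Members of the E2F family stood on both sides, and 1 passed. E2f2, an activator of the family (chromosome 4, 136172394 to 136196057, plus strand), was at 26.7, 33.0 and 35.4 CPM in mIDH1 libraries, against 44.2, 71.3 and 55.4 CPM in wtIDH1 libraries. All mIDH1 libraries were under all wtIDH1 libraries, and it fell close to the threshold (log2 fold change -0.85 ± 0.24 SE, adjusted p = 0.0497). It no longer passed with scaling by library totals alone or by upper quartiles, nor without mIDH1 replicate 1 or 2 or wtIDH1 replicate 2 or 3, with an adjusted p of up to 0.234. E2f4, which mainly represses together with pocket proteins in resting cells, was at 45.3, 51.2 and 49.1 CPM in mIDH1 and 77.4, 79.4 and 62.8 CPM in wtIDH1 libraries. The groups were apart, but the test was not passed (log2 fold change -0.59 ± 0.19 SE, adjusted p = 0.0815). E2f3, another activator, had its groups apart the other way, at 23.3, 15.6 and 20.1 CPM in mIDH1 and 13.3, 7.82 and 9.98 CPM in wtIDH1 libraries (log2 fold change 0.92 ± 0.36 SE, adjusted p = 0.141). E2f1, the activator most closely tied to S phase entry, overlapped, at 9.91, 14.1 and 18.5 CPM in mIDH1 and 20.2, 18.2 and 14.4 CPM in wtIDH1 libraries (log2 fold change -0.31 ± 0.35 SE, adjusted p = 0.665). Per kilobase, E2f4 was the highest of the 4 in both groups, at 19.8 CPM in mIDH1 and 29.9 CPM in wtIDH1, and E2f3 the lowest, at 3.62 and 1.91 CPM.

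Of the pocket proteins, only Rbl2 passed. Rbl2, the gene of p130, the pocket protein of resting cells (chromosome 8, 91070057 to 91123844, plus strand), was at 92.5, 113 and 111 CPM in mIDH1 libraries, against 77.9, 59.7 and 61.9 CPM in wtIDH1 libraries. Each mIDH1 library was above each wtIDH1 library, and the gene rose (log2 fold change 0.66 ± 0.19 SE, adjusted p = 0.0466). Over 1585 of its exonic bases it overlaps genes on the other strand, mainly Aktip, which was at 17.8 ± 5.75 CPM in mIDH1 and 8.75 ± 2.46 CPM in wtIDH1 libraries (SD, n = 3 each), and the part of those reads in the difference was not tested. Rbl2 passed in 1 of 6 fits that left out a library, the one without mIDH1 replicate 1, and its adjusted p in the others was between 0.057 and 0.196. Rb1, the retinoblastoma gene itself, was at 74.3, 97.3 and 60.5 CPM in mIDH1 and 67.5, 59.7 and 82.2 CPM in wtIDH1 libraries (log2 fold change 0.15 ± 0.22 SE, adjusted p = 0.752), and Rbl1, the gene of p107, at 39.6 to 67.2 CPM and 52.9 to 81.4 CPM in the same order (adjusted p = 0.488). Whether these family members differ from one another in their response was not tested.

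**Figure D2:**
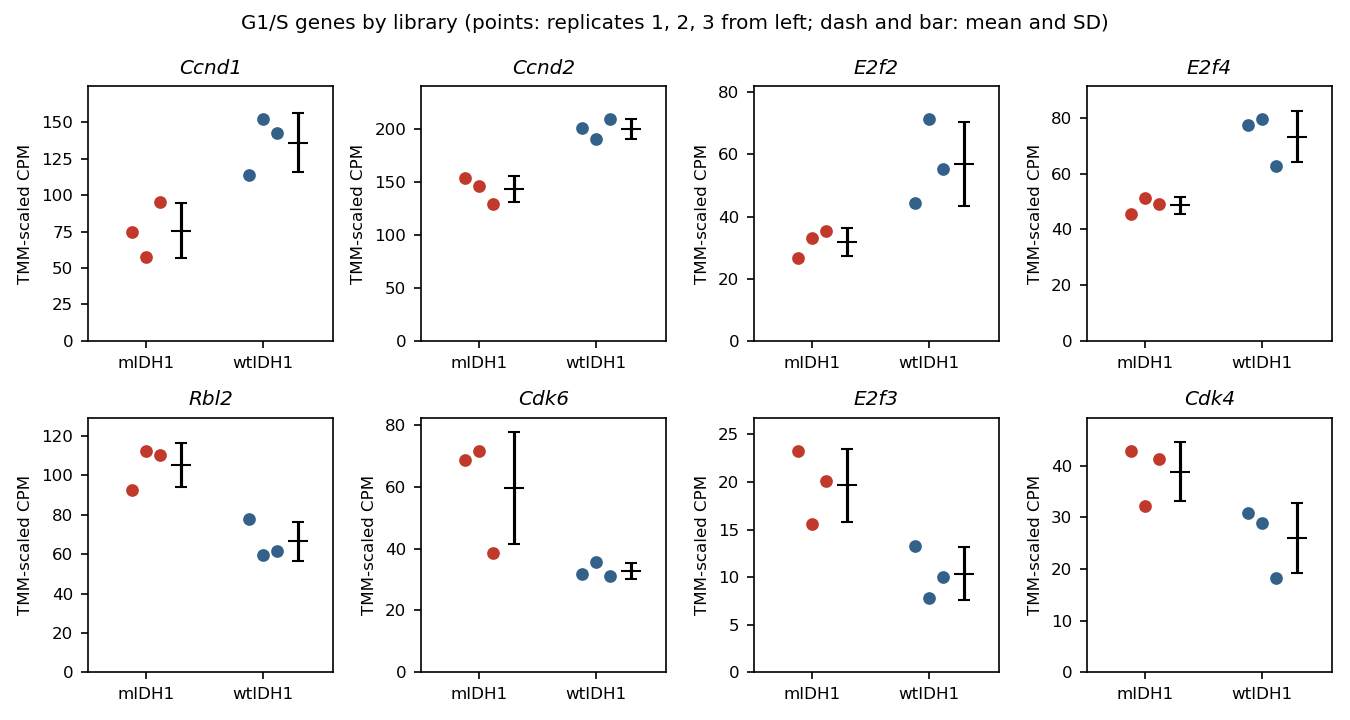
TMM-scaled CPM of 8 G1/S genes in the 3 mIDH1 and the 3 wtIDH1 libraries, with points for replicates and a dash with a bar for mean and SD. The groups do not overlap in any of the 8 panels: Ccnd1, Ccnd2, E2f2 and E2f4 are lower in mIDH1 and Rbl2, Cdk6, E2f3 and Cdk4 higher, of which Ccnd1, E2f2 and Rbl2 passed the test.

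The promoters of both called E2F and pocket protein genes, and of 2 relatives, are shown to set what lies before their starts beside the behaviour of the RNA. They are RefSeq sequences of the GRCm38.p6 build, 5′ to 3′ on the strand of the gene. Capitals mark an E2F site (TTTGGCGC, TTTCCCGC, TTTGCCGC or TTTCGCGC), a CHR element (TTTGAA or TTCGAA) or a CCAAT box (CCAAT), on either strand.
E2f2, chr4:136172174-136172273, plus strand: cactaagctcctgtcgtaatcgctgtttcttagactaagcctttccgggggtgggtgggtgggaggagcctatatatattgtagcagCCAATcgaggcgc
Rbl2, chr8:91069837-91069956, plus strand: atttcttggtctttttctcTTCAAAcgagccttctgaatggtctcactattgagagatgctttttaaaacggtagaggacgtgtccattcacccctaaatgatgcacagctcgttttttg
Rbl1, chr2:157204535-157204634, minus strand: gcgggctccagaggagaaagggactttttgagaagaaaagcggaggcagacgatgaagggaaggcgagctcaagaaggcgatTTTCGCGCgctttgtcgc
E2f3, chr13:29986064-29986213, minus strand: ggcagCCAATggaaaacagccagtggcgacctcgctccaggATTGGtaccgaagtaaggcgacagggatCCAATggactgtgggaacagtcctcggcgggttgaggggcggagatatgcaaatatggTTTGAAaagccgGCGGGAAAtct
In E2f2 the stretch ends at the base before the first of 2 starts and holds a CCAAT box, which begins 13 bases before that start. The 250 bases before its second start, not shown, hold a CHR element at 31 and CCAAT boxes at 174, 133 and 53. Of those bases, 46 lie in annotated exons. The Rbl2 stretch begins 220 bases before the start and holds a CHR element on the other strand at 201. Rbl1 has an E2F site 18 bases before its start. E2f3 has an E2F site at 11, a CHR element at 23 and CCAAT boxes at 145, 109 and 81 bases before its first start. In the 250 bases before any start, 4 of the 11 G1/S genes in the table held an E2F site (36.4%), against 2.16% of 27025 genes. Ccnd1, Ccnd2, Ccne2, E2f4 and Rb1 were not among those 11. The window of E2f1, in which no E2F site was found, lies wholly within annotated exons. A match of letters is a description and not a bound site, and the RNA of the 4 genes with an E2F site (Cdk2, Cdc25a, E2f3 and Rbl1) was not called in either direction.

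None of the 15 replication genes passed edgeR's test, DESeq2's or limma voom's, and none was at an unadjusted p under 0.05. The groups overlapped for all 15, and 7 had a positive and 8 a negative log2 fold change, from -0.70 for Cdc6 to 0.96 for Cdc45. Pcna, the clamp that holds the polymerases on DNA, had the highest level per kilobase of the 52 genes, at 38.9 CPM in mIDH1 and 46.6 CPM in wtIDH1. It was at 99.4, 75.3 and 106 CPM in mIDH1 libraries and 130.4, 92.0 and 113 CPM in wtIDH1 libraries, with the groups overlapping (log2 fold change -0.26 ± 0.20 SE, adjusted p = 0.490, 95% interval -0.69 to 0.17). Pcna, Tyms, Ccnd3, Ccnb1 and Ccnb2 have annotated pseudogenes, and the labels do not state how reads that match both were assigned.

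The 6 subunits of the MCM helicase, which unwinds DNA at the fork, kept overlapping groups throughout. Mcm2 was at 46.9, 21.7 and 39.3 CPM in mIDH1 and 58.9, 40.3 and 31.2 CPM in wtIDH1 libraries (log2 fold change -0.27 ± 0.32 SE, adjusted p = 0.678). Mcm3 was at 60.6, 81.1 and 99.6 CPM in mIDH1 and 80.0, 60.8 and 33.0 CPM in wtIDH1 libraries (log2 fold change 0.47 ± 0.29 SE, adjusted p = 0.383). The other 4 had log2 fold changes between -0.03 and 0.21. Mcm4 and Mcm5 had 95% intervals of -0.59 to 0.53 and of -0.74 to 0.75, so a change of up to about those sizes would not be told from none in these libraries. Cdt1, which loads the helicase onto origins, was at 33.1, 28.8 and 44.1 CPM in mIDH1 and 42.5, 44.8 and 45.4 CPM in wtIDH1 libraries (log2 fold change -0.32 ± 0.23 SE, adjusted p = 0.467). Its partner Cdc6 was low, at 0.869 to 4.95 CPM in mIDH1 and 3.33 to 8.32 CPM in wtIDH1.

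Cdc45, which joins the helicase when it fires, was at 9.36, 3.69 and 13.3 CPM in mIDH1 and 3.65, 4.74 and 5.09 CPM in wtIDH1 libraries. Replicates 1 and 3 of mIDH1 were above all wtIDH1 libraries and replicate 2 was not (log2 fold change 0.96 ± 0.58 SE, adjusted p = 0.369). Gins2, a subunit of the same active helicase, overlapped (log2 fold change -0.04 ± 0.55 SE). Among the enzymes of nucleotide supply, Rrm1 and Rrm2 of ribonucleotide reductase, Tyms and Tk1, the adjusted p lay between 0.539 and 0.769. Rrm2, the subunit made in S phase, varied the most, from 1.92 to 23.6 CPM within the 3 wtIDH1 libraries, against 5.89 to 10.6 CPM in the mIDH1 libraries.

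Replication genes shared promoter letters with the G1/S genes. Of the 13 in the promoter table, 4 held an E2F site (30.8%, against 2.16% of all genes) and 9 a CCAAT box (69.2%, against 37.5%). Mcm4 and Gins2 were not among the 13. The E2F site of Mcm7, 1 of these 4 genes, was in a window that lies wholly within annotated exons. The promoters of 2 helicase subunits are shown for their paired E2F sites.
Mcm6, chr1:128359706-128359825, minus strand: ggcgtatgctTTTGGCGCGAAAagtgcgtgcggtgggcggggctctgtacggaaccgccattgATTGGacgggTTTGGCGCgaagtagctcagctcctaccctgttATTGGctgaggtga
Mcm5, chr8:75109349-75109508, plus strand: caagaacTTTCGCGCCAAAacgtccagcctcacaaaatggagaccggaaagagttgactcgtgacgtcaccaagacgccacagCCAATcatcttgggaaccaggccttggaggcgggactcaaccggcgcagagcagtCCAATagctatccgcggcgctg
Both stretches end at the base before the start. In Mcm6, E2F sites begin 110, 106 and 47 bases before the start, the first 2 overlapping on opposite strands, with CCAAT boxes at 57 and 14. Mcm5 has overlapping E2F sites at 153 and 149 and CCAAT boxes at 77 and 22. In RNA, Mcm6 was at 50.6, 47.8 and 70.0 CPM in mIDH1 and 63.5, 44.2 and 37.8 CPM in wtIDH1 libraries, and Mcm5 at 32.7, 17.0 and 42.9 CPM and 36.7, 34.5 and 20.9 CPM in the same order. Neither separated the groups.

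None of the 21 mitotic genes passed edgeR's test or limma voom's, while DESeq2 called 1, Mki67, which was also the 1 gene at an unadjusted p under 0.05 in edgeR. Log2 fold changes ran from -0.84 to 1.31, with 15 positive and 6 negative. Mki67 encodes Ki-67, the chromosome coat protein used as a mark of dividing cells. It was at 47.3, 80.0 and 89.0 CPM in mIDH1 libraries, against 183, 114 and 89.1 CPM in wtIDH1 libraries. The groups all but touched, with mIDH1 replicate 3 just under wtIDH1 replicate 3 (log2 fold change -0.84 ± 0.28 SE, adjusted p = 0.0918 by edgeR and 0.0399 by DESeq2). Without wtIDH1 replicate 1, the highest library, the log2 fold change of Mki67 was -0.50 (adjusted p = 0.337), and without mIDH1 replicate 3 it was -1.02 (adjusted p = 0.0434).

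Top2a, Cdk1 and Ccnb1, which also mark dividing cells, had overlapping groups. Top2a, the topoisomerase that untangles chromosomes, was at 35.1, 30.6 and 90.5 CPM in mIDH1 and 54.0, 41.05 and 29.6 CPM in wtIDH1 libraries (log2 fold change 0.32 ± 0.37 SE, adjusted p = 0.681). Cdk1, the kinase of mitotic entry, was at 2.21, 9.66 and 15.7 CPM in mIDH1 and 7.35, 9.75 and 5.09 CPM in wtIDH1 libraries (log2 fold change 0.31 ± 0.63 SE, adjusted p = 0.829). Its partner Ccnb1, cyclin B1, was at 4.57, 7.51 and 20.4 CPM in mIDH1 and 10.3, 5.31 and 0.857 CPM in wtIDH1 libraries (log2 fold change 0.97 ± 0.77 SE, adjusted p = 0.517). In all 3 genes mIDH1 replicate 3 was the highest of the 6 libraries and the groups overlapped. The spindle checkpoint kinase Bub1 spread from 0.948 to 9.51 CPM in mIDH1 and from 0.835 to 5.22 CPM in wtIDH1 libraries (log2 fold change 1.17 ± 0.97 SE, adjusted p = 0.538). Cdc25b, a phosphatase that activates Cdk1, was at 6.52, 20.8 and 11.5 CPM in mIDH1 and 32.2, 17.5 and 14.6 CPM in wtIDH1 libraries (log2 fold change -0.73 ± 0.45 SE, adjusted p = 0.381). Apart from Mki67, Cdc20, the activator of the anaphase-promoting complex, was the 1 mitotic gene with groups apart, at 3.73 to 4.804 CPM in mIDH1 and 1.40 to 3.47 CPM in wtIDH1 (adjusted p = 0.719). The remaining 14, among them the kinases Plk1, Aurka and Aurkb, the motors Kif11, Kif23 and Cenpe and the survival and cytokinesis protein gene Birc5, had adjusted p between 0.543 and 0.983.

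The mitotic genes varied together between libraries of the same group. In 13 of the 21, mIDH1 replicate 3 was the highest of the 6 libraries, and in 6 it was wtIDH1 replicate 1, leaving Kif23 and Prc1. The 2 libraries, picked after the mitotic values were seen, were highest in 90.5% of mitotic genes, 73.3% of replication genes and 12.5% of G1/S genes, against 32.2% of all genes tested. Among 48 further replication genes, described below, the share was lower, at 43.8%. Summed over the 21 genes the level was 210, 292 and 478 CPM in mIDH1 libraries and 496, 310 and 263 CPM in wtIDH1 libraries. The spread inside each group was thus larger than the distance between the groups. The replication genes summed to 501, 499.97 and 629 CPM in mIDH1 and 679, 492 and 446 CPM in wtIDH1 libraries, with the same 2 libraries on top. The G1/S genes summed to 764, 791 and 715 CPM in mIDH1 and 811, 887 and 859 CPM in wtIDH1 libraries, and there the groups did not overlap. This sum is weighted to the best expressed genes, among them Ccnd1 and Ccnd2, both lower in every mIDH1 library. Of the 16 genes, 8 had a positive and 8 a negative log2 fold change, so the sum does not describe the list as a whole.

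The median log2 fold change of the mitotic genes turned with single libraries: it was 0.23 with all 6, -0.32 without mIDH1 replicate 3, -0.04 without wtIDH1 replicate 2 and 0.68 without wtIDH1 replicate 1. The median SD between replicates, in log2 units, was 0.85 for mitotic, 0.42 for replication and 0.33 for G1/S genes, against 0.41 for all genes tested. Low genes vary more: over all genes tested this SD was 0.86 at a mean under 5 CPM, 0.62 from 5 to 10 CPM and 0.45 from 10 to 20 CPM.

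**Figure D3:**
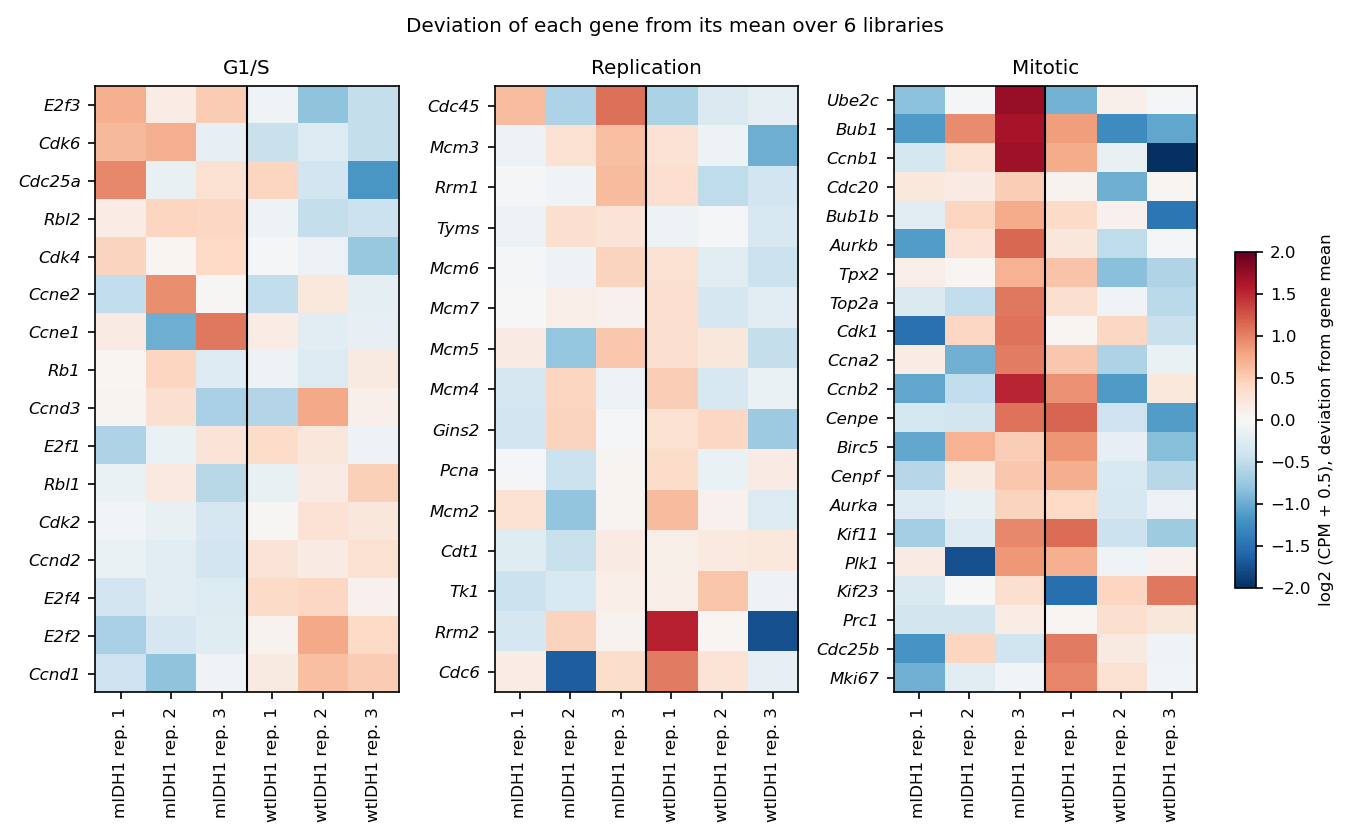
Log2 (CPM + 0.5) of each of the 52 genes as a deviation from its own mean over the 6 libraries (colour scale in log2 units, cut at 2 in size), with the mIDH1 libraries left of the line and the wtIDH1 libraries right of it. Rows of each panel are sorted by log2 fold change. Red columns at mIDH1 replicate 3 and wtIDH1 replicate 1 run through most of the mitotic panel. In the G1/S panel the upper and lower rows change colour at the line between the groups, which the sorting itself favours.

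The same 2 libraries also stood highest for a list of 7 microglia markers, whose summed level was 744, 1060 and 1600 CPM in mIDH1 and 1498, 1182 and 926 CPM in wtIDH1 libraries. The list was not uniform: 5 of the 7 (71.4%) were highest in 1 of these 2 libraries, against 32.2% of all genes tested. The other 2 were highest in wtIDH1 replicate 2, and 1 of the 7 was lowest in mIDH1 replicate 3. As 1 of those that follow the sum, Tmem119 was at 83.6, 98.3 and 223 CPM in mIDH1 and 125, 113 and 82.7 CPM in wtIDH1 libraries. None of the 7 was at 0 in any library. None passed edgeR's test, while DESeq2 called 2, P2ry12 (higher in mIDH1, adjusted p = 0.0222) and Sparc (lower, adjusted p = 0.022), and limma voom called Sparc (adjusted p = 0.0388). The part of these markers in the mitotic values was not tested. The list of 13 T and NK cell markers summed to 738, 932 and 505 CPM in mIDH1 and 627, 410 and 362 CPM in wtIDH1 libraries. It shared the order of the microglia list in wtIDH1 but not in mIDH1. Of these 13, 11 had a positive and 2 a negative log2 fold change. EdgeR called 1, higher in mIDH1, against 8.17% of all genes tested. At an unadjusted p under 0.05 there were 6, all higher, against 22.2% of all genes tested. Their part in the mitotic values was not tested. Of 14 glioma and neural markers, Sox2, which glioma stem cells express, was at 0.546, 7.30 and 4.19 CPM in mIDH1 and 0, 0.0759 and 0.151 CPM in wtIDH1 libraries (adjusted p = 0.0368 by edgeR, 0.238 by limma voom), and Olig2 was at or under 0.0504 CPM in all 6. The glioma and neural list summed to 92.7 to 100.6 CPM in mIDH1 and 95.8 to 96.6 CPM in wtIDH1, mostly Mbp, so the sum says little of the others. Of the 14, 5 were higher and 1 lower in every mIDH1 library. Over all genes tested 28.9% had groups apart, but that share leaves out genes under the filter on low counts, which the 14 include. EdgeR tested 7, with 3 positive and 4 negative log2 fold changes. Of these, 3 higher and 1 lower had an unadjusted p under 0.05, against 22.2% of all genes tested. DESeq2 called 3 of the list, against 11.7% of the genes it tested. Over all 6 libraries, the T and NK cell sum was highest in mIDH1 replicate 2. The glioma and neural sum lay between 92.7 and 100.6 CPM throughout, so its order between libraries says little. Gene by gene, mIDH1 replicate 3 or wtIDH1 replicate 1 was highest for 1 of the 13 T and NK cell markers. The same held for 2 of the 7 glioma and neural markers tested, against 32.2% of all genes tested. The part of the glioma and neural markers in the mitotic values was not tested. Within wtIDH1, the T and NK cell list was highest in replicate 1, as the mitotic genes were. The totals of mIDH1 replicate 3 and wtIDH1 replicate 1 were 19728204 and 21538975 counts, the lowest and the third lowest of the 6.

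**Figure D4:**
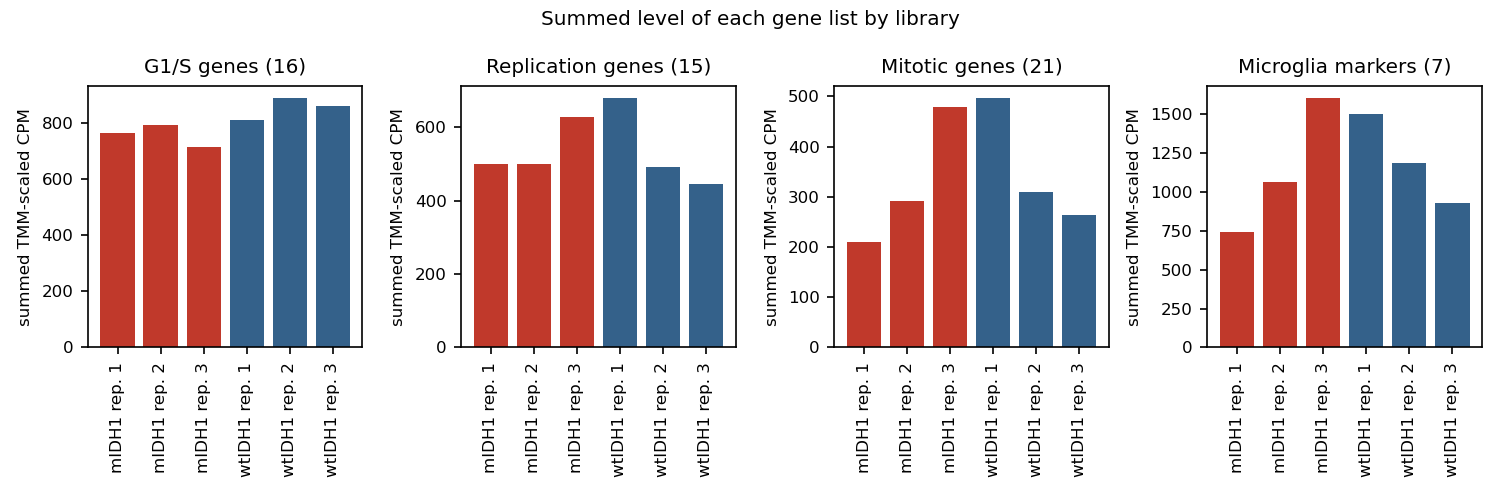
Summed TMM-scaled CPM of the G1/S, replication and mitotic genes and of 7 microglia markers in each library, mIDH1 in red and wtIDH1 in blue. The mitotic bars reach 478 CPM in mIDH1 replicate 3 and 496 CPM in wtIDH1 replicate 1 and 210 to 310 CPM in the other 4 libraries, and the microglia bars are tallest in the same 2 libraries.

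Most promoters of the mitotic genes held a CCAAT box. Of the 18 in the promoter table, 17 held a CCAAT box (94.4%, against 37.5% of 27025 genes), 9 a CHR element (50%, against 19.6%) and 9 held both (50%, against 7.93%), while 1 held an E2F site. Ccna2, Aurkb and Tpx2 were not among the 18. The 4 below are examples that hold both elements. Their RNA was highest in wtIDH1 replicate 1 (Mki67 and Kif11) or mIDH1 replicate 3 (Top2a and Ccnb2), as was that of most mitotic genes. Ccnb1 and Bub1 were also highest in mIDH1 replicate 3, and no CHR element was found in their windows.
Mki67, chr7:135716460-135716579, minus strand: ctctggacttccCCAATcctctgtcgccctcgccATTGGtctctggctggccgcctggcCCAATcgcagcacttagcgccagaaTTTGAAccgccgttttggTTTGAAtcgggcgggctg
Top2a, chr11:99024190-99024429, minus strand: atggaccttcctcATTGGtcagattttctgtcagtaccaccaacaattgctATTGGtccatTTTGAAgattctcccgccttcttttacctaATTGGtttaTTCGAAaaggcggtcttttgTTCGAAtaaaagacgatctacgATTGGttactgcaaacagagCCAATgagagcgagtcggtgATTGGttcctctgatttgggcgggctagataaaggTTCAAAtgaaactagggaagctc
Ccnb2, chr9:70421555-70421734, minus strand: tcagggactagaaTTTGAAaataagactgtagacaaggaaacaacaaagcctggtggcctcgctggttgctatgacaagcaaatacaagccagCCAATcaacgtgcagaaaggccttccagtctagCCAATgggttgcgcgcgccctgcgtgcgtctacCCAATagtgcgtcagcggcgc
Kif11, chr19:37376282-37376381, plus strand: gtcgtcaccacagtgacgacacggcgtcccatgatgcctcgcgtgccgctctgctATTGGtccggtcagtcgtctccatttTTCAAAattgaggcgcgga
The Mki67 stretch runs from 200 to 81 bases before the start, with CCAAT boxes at 188, 166 and 141 and CHR elements at 116 and 98. The other 3 end at the base before the start. Top2a holds 6 CCAAT boxes and 4 CHR elements. Ccnb2 holds a CHR element at 167 and CCAAT boxes at 87, 54 and 21, and Kif11 a CCAAT box at 45 with a CHR element at 19. In RNA, Ccnb2, cyclin B2, was at 2.27, 3.54 and 15.8 CPM in mIDH1 and 10.2, 2.09 and 6.10 CPM in wtIDH1 libraries, and Kif11, a spindle motor, at 8.07, 11.1 and 26.3 CPM and 29.4, 9.75 and 7.92 CPM in the same order.

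Other genes of the cycle are given by role, and their counts of calls stand against 8.17% of all genes tested. Among 14 further E2F, DP and DREAM complex genes, 1 rose, Rbbp4, a histone-binding subunit of several chromatin complexes, at 157 ± 9.63 CPM in mIDH1 and 105 ± 6.02 CPM in wtIDH1 (mean ± SD of 3 libraries each), with an adjusted p of 0.0437 and a log2 fold change of 0.58 ± 0.16 SE. Among 48 further replication genes 1 fell, Timeless, which steadies stalled forks, at 12.4 ± 4.31 CPM in mIDH1 and 30.2 ± 7.52 CPM in wtIDH1 (log2 fold change -1.28 ± 0.33 SE, adjusted p = 0.0341). Among 15 genes of the anaphase-promoting complex 1 fell, Fzr1, whose product Cdh1 holds the complex active in G1, at 41.8 ± 7.002 CPM in mIDH1 and 70.7 ± 8.95 CPM in wtIDH1 (log2 fold change -0.76 ± 0.21 SE, adjusted p = 0.0466). None of 50 further mitotic genes and none of 12 cyclin and SCF partners passed edgeR's test, with 3 and 1 at an unadjusted p under 0.05; DESeq2 called 1 and 0 of them and limma voom 0 of either. In 37 of those 50 mitotic genes (74%) mIDH1 replicate 3 or wtIDH1 replicate 1 was the highest library. The same held for 21 of the 48 further replication genes (43.8%), against 32.2% of all genes tested. In fits that left out 1 library, the E2F list had 1 call only without mIDH1 replicate 3, the replication list only without mIDH1 replicate 2 and the anaphase-promoting list only without mIDH1 replicate 1, and the other 5 fits of each gave 0. The anaphase-promoting list also had 0 calls with library totals alone or upper-quartile factors. Median log2 fold changes of these 5 lists lay between -0.18 and 0.16.

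Checkpoint genes gave calls in both directions. Of 22 genes of the DNA damage checkpoint 1 rose and 2 fell, against 8.17% of all genes tested, and 1 call was left without wtIDH1 replicate 2 and 1 without wtIDH1 replicate 3. Mdm2, the ubiquitin ligase that p53 induces and that degrades it, was at 142, 117 and 122 CPM in mIDH1 and 236, 330.2 and 336 CPM in wtIDH1 libraries (log2 fold change -1.24 ± 0.19 SE, adjusted p = 0.00203). Its relative Mdm4 fell as well (log2 fold change -0.86 ± 0.21 SE, adjusted p = 0.0257). Rad1, part of a clamp that senses damage, rose to 9.72 ± 7.02 CPM in mIDH1, against 1.40 ± 0.632 CPM in wtIDH1, with an adjusted p of 0.0355 by edgeR and 0.195 by limma voom. Of 7 CDK inhibitor genes 1 rose and 1 fell, and the count was 2 in each fit that left out a library. Cdkn1a, the gene of p21, which stops cyclin E and A kinases, was at 187, 173 and 127 CPM in mIDH1 and 351, 409.6 and 391 CPM in wtIDH1 libraries, so that all mIDH1 libraries were lower (log2 fold change -1.24 ± 0.18 SE, adjusted p = 0.00186). Cdkn2a, whose products block Cdk4 and Cdk6 or guard p53, was at 11.5, 8.10 and 11.8 CPM in mIDH1 libraries, while the wtIDH1 libraries held 2, 4 and 2 counts of it (adjusted p = 0.000417). The p27 gene Cdkn1b did not pass (adjusted p = 0.494), nor did Cdkn1c, Cdkn2b, Cdkn2c and Cdkn2d (adjusted p from 0.393 to 0.936).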

How the data were processed

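The 6 libraries, 3 labelled mIDH1 and 3 wtIDH1, were polyA-selected and unstranded (TruSeq), per the labels' protocols. What the authors deposited is a single table of unscaled estimated counts. TopHat2 2.0.13, Bowtie2 2.2.1, Cufflinks, Cuffdiff 2.1.1, HTSeq and FastQC, with mm10, are named per the submitters' processing notes, which leave out order, settings and annotation. Values were rounded, since 1.31% to 1.61% in each library were off a whole number by more than 1e-09.

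Genes were filtered with filterByExpr (minimum count 10, minimum total 15), scaled by TMM and tested with edgeR 4.0.16 (glmQLFit and glmQLFTest, group as the only term) in R 4.3.3, two-sided, with Benjamini-Hochberg adjustment over all genes tested and a threshold of 0.05. DESeq2 1.42.0 and limma 3.58.1 (voom) were alternatives, with other scalings, filters, a replicate block and each library left out. Chi-square values of 50.3 to 144 per degree of freedom set replicates of a group apart from each other, and since nothing says they are separate mice, p-values measure only the spread between these samples. Limits for counts of 0 use 3 counts and cover counting error only.

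Coordinates and exon lengths are those of GENCODE M21 (GRCm38, as mm10), and promoter motifs were searched in the 250 bases before RefSeq starts. Some of these windows overlap annotated exons, over 250 bases for E2f1 and a window of Mcm7, 217 for Plk1 and 208 for Pcna. The 52 genes and the other lists were chosen with earlier results of these data known. Named in full are genes past the threshold, the 4 with the smallest p in each role, and 14 chosen by name; of other lists those past the threshold and the CDK inhibitors. Library values of E2f3, Cdc6, Rrm2, Mcm5, Mcm6, Ccnb2, Kif11, Cdc20, Cdk2, Rbl1 and the markers, and the promoters shown, were picked after values were seen.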

Additional observations from a re-analysis of the deposited data

How the results depend on the processing

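The 3 G1/S calls held with DESeq2 size factors, the stricter filter and limma voom, and with library totals alone or upper-quartile factors 3 genes passed with Cdk6 in place of E2f2. No replication gene was called under any of the 14 alternatives. The mitotic count was 1 with no filter and 1 by DESeq2, each time Mki67. Over all genes, 1698 passed by DESeq2, 715 higher and 983 lower in mIDH1. Of edgeR's calls, 65.97% were lower in mIDH1 with TMM scaling and 54.96% with library totals alone. Library totals alone gave 1 call among cyclin and SCF partners, 2 among further replication genes and 0 in the anaphase-promoting complex, upper-quartile factors 2 and 0 in these last 2 lists, and DESeq2 2 among further replication and 1 among further mitotic genes.

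Replicate numbers carry no stated pairing, and the deviations of same-numbered libraries correlated at -0.03, 0.03 and -0.05, so the numbers were not taken as pairs. The replicate block left 585 calls over all genes, 0 among G1/S genes, and 0 in each of the further E2F, further replication and anaphase-promoting lists. Cdk1 changed sign with limma voom (-0.27) and with the block (-0.031).

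With 1 library left out, calls ranged from 334 to 1033 over all genes, from 0 to 3 among G1/S genes, from 0 to 1 among mitotic genes, from 0 to 1 in the further E2F, further replication, further mitotic and anaphase-promoting lists and from 1 to 3 in the checkpoint list. G1/S calls were 0 without mIDH1 replicate 2, wtIDH1 replicate 2 or wtIDH1 replicate 3, and 1 without mIDH1 replicate 1. The mitotic median ranged from -0.32 to 0.68. Log2 fold changes ranged from -0.049 to 0.30 for Rb1, -0.51 to 0.16 for Ccnd3, -0.51 to 0.0039 for Mcm2, -0.34 to 0.59 for Top2a and -0.32 to 0.78 for Cdk1. The cause of these shifts was not tested. Genes near or under 5 CPM had wide 95% intervals of the log2 fold change, such as -1.54 to 4.15 for Ube2c, -1.71 to 2.72 for Ccne2 and -2.37 to 0.97 for Cdc6. The parts of depth and of the spread between replicates in these intervals were not tested.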
